A study of Mus musculus with 8 samples.

Results

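Scavenger receptors are surface proteins with which macrophages take up modified lipoproteins, dying cells and other debris. Their RNA was examined here for 10 genes, *Msr1*, *Marco*, *Colec12*, *Cd36*, *Scarb1*, *Cd68*, *Olr1*, *Mrc1*, *Stab1* and *Lrp1*. They were chosen by gene symbol for their role in the uptake of lipoproteins and debris. The rule uses no measured value, but earlier results of these data were known when it was set. All 10 were found among the 55401 genes of the deposited table, and all 10 were among the 15202 genes tested, which reached at least 0.5 CPM (counts of a gene scaled to the total of its library) in at least 1 library.

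Poly(A) RNA was sequenced from cultured hepatic macrophages in 8 libraries, 2 for each of 4 groups. The libraries labelled normal came from wild-type (WT) C57BL/6J mice fed a standard diet (SD), and those labelled steatotic from MC4R-KO mice, which lack the melanocortin-4 receptor and become obese, on the C57BL/6J background and fed a Western diet (WD) for 6 to 10 wk. Genotype and diet therefore differ together and cannot be told apart. Cells had been selected with an antibody to F4/80 and magnetic beads, plated on collagen, and given vehicle (Veh) or cholesterol crystals (CC, 500 μg/ml) for 24 h in medium with serum. They may hold both resident Kupffer cells and macrophages derived from monocytes. Mice of the feeding experiments were males that began their diet at 8 wk of age, which is not stated separately for the mice that gave these cells, and whether animals were pooled is not given in the sources used here. The labels do not say whether the 2 libraries of a group came from separate animals or cultures, so that the p-values measure only the spread between these libraries, which may be technical. Total counts were 58668655 to 74529462 per library. Within each group, log2 CPM of the libraries correlated across genes at a Pearson r of 0.983 to 0.985.

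*Mc4r*, the gene disrupted in the MC4R-KO mice, had 0 counts in each library labelled normal and 22 to 72 counts in each library labelled steatotic. The few reads of the gene thus lay in the libraries labelled as the knockout. *Mc4r* is chiefly a gene of the brain, so that its absence from WT macrophages checks no label, and gene counts alone cannot tell whether the reads came from the disrupted allele. All directions between livers below rest on the labels. Macrophage markers were abundant. *Adgre1*, which encodes F4/80, had mean levels of 818 to 1734 CPM in the 4 groups and *Csf1r*, the receptor for the growth factor that macrophages need, 1149 to 1658 CPM.

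As background, scavenger receptors fall into classes with unrelated folds that share polyanionic and oxidized ligands. Class A members (*Msr1*, *Marco*, *Colec12*) carry a collagen-like stalk and bind acetylated and oxidized low-density lipoprotein (LDL), bacteria and particles. Class B members (*Cd36*, *Scarb1*) are hairpin proteins with 2 membrane passes that bind oxidized LDL and fatty acids or exchange cholesteryl ester and free cholesterol with high-density lipoprotein. *Cd68* encodes a heavily glycosylated protein of late endosomes and lysosomes, *Olr1* the lectin-like receptor LOX-1 for oxidized LDL, *Mrc1* the mannose receptor CD206, which clears glycoproteins and collagen fragments, *Stab1* the receptor stabilin-1 for modified LDL and extracellular matrix fragments, and *Lrp1* a giant endocytic receptor for remnant lipoproteins carrying apolipoprotein E, protease complexes and dying cells. In the liver these receptors are shared between Kupffer cells and sinusoidal endothelial cells, the latter being rich in stabilins, the mannose receptor and CD36. Many of them are not shut down by a rise in cell cholesterol, which lets a macrophage go on taking up lipid.

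The upstream sequence is shown for 3 receptors, *Mrc1*, which fell with CC, and *Cd36* and *Marco*, which rose with CC under the label steatotic, because regulators known to drive macrophage genes are among those measured below. Each is the 250 bases before the transcription start given by RefSeq on GRCm38.p6, read 5′ to 3′ on the strand of the gene, with matches to the motif GAGGAAG of PU.1, the master regulator of macrophages, or to its reverse complement CTTCCTC in capitals. The *Mrc1* sequence lies at chr2:14229164-14229413 on the plus strand, the *Cd36* sequence at chr5:17835897-17836146 on the minus strand and the *Marco* sequence at chr1:120505025-120505274 on the minus strand.
Mrc1: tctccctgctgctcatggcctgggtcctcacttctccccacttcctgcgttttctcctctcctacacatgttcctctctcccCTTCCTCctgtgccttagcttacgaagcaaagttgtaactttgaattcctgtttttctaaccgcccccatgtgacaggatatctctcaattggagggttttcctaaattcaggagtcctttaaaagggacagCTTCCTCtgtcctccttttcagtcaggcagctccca
Cd36: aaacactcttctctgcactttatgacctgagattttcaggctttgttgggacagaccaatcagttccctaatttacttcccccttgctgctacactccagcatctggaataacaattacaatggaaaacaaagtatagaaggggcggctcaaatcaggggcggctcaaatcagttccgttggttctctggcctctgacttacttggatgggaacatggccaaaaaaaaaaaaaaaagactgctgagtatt
Marco: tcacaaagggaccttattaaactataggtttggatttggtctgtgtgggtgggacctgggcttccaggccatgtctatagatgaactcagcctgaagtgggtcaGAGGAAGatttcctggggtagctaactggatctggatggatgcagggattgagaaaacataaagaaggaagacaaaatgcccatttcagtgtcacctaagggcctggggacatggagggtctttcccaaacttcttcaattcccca
The PU.1 motif was found at 168 and 36 bases before the start of *Mrc1*, both on the opposite strand, and at 146 bases before that of *Marco*. No motif searched was found in the *Cd36* window, which lies upstream of only some of its transcripts. The 4 motifs searched on both strands were GAGGAAG, the AP-1 site TGANTCA, the E-box CACGTG, which is the core of the TFE3 and TFEB site, and GCGTGGGCG of EGR1. RefSeq sequences were at hand for 7 of the 10 genes. Apart from the matches in *Mrc1* and *Marco*, TGANTCA stood at 60 bases before the start of *Olr1* and at 149 and 24 bases before that of *Cd68*, and *Lrp1* and *Stab1* held none of the 4. Among 32851 promoter windows of the same length, 10.6% held GAGGAAG, 6.75% TGANTCA, 6.02% CACGTG and 0.536% GCGTGGGCG. A match of this kind is a description of the letters only.

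The genes covered a wide range of levels, compared here as CPM per kilobase (kb) of exon sequence. *Cd68* was highest in every group, at 2855 ± 107 CPM per kb (SD, n = 2) with the label normal and Veh, followed by *Cd36* at 271 ± 4.93, *Msr1* at 206 ± 0.0286 and *Marco* at 190.3 ± 6.65. In the same group *Lrp1* was at 63.4 ± 8.17 and *Mrc1* at 58.5 ± 0.854 CPM per kb, and the libraries of these neighbours overlapped. *Scarb1* at 16.9 ± 0.503, *Stab1* at 13.9 ± 0.783 and *Colec12* at 13.3 ± 0.129 CPM per kb came next, the last 2 overlapping. *Olr1* was close to the floor, at 0.0344 ± 0.0187 CPM per kb. With the label steatotic and Veh the order became *Cd68* (1651 CPM per kb), *Cd36* (397), *Msr1* (274), *Lrp1* (76.4), *Mrc1* (68.4), *Marco* (48.2), *Stab1* (25.7), *Scarb1* (16.2), *Colec12* (4.15) and *Olr1* (0.217), with no overlap between neighbours. At Veh, *Marco* thus stood above *Lrp1* and *Mrc1* with the label normal and below both with the label steatotic. With CC, *Marco* (214 CPM per kb) stood above *Msr1* (189) with the label normal, and *Colec12* (15.2) above *Scarb1* (12.98) and *Stab1* (12.9), of which the last 2 overlapped. With the label steatotic and CC, *Cd36* reached 530.0 CPM per kb against 256 for *Msr1*, while *Lrp1* (86.7) and *Marco* (78.0) overlapped and both stood above *Mrc1* (21.8), itself just above *Stab1* (20.03).

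**Figure D1:**
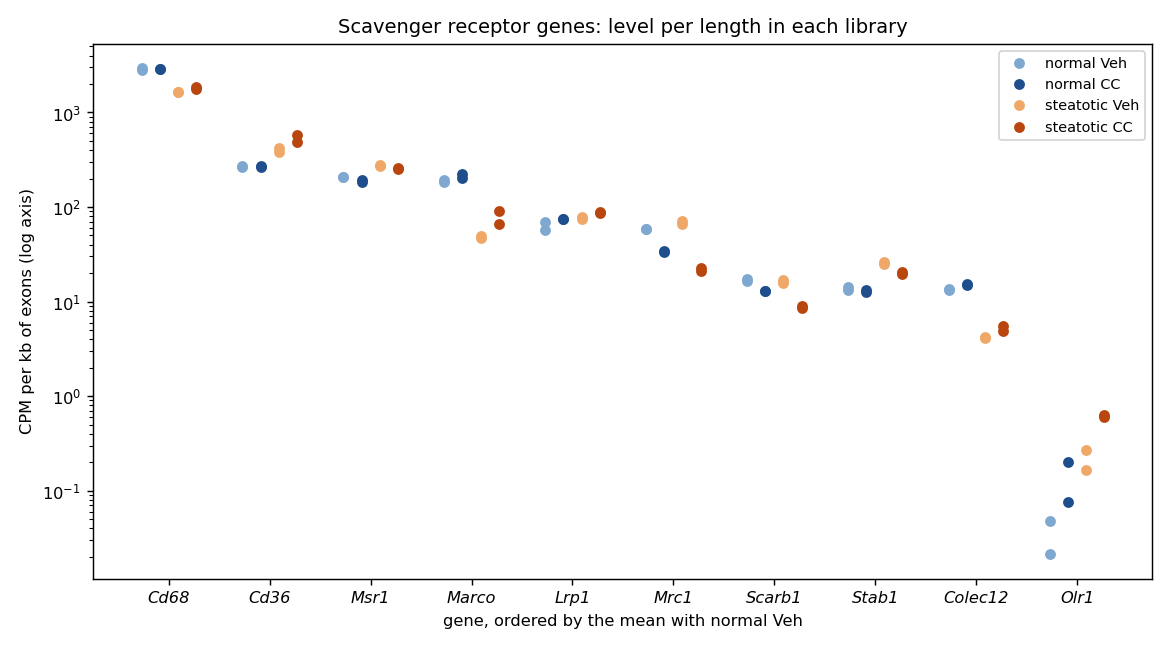
Level of the 10 scavenger receptor genes as CPM per kb of exon sequence on a log axis, 1 point per library, with colours for the 4 groups and genes ordered by their mean with the label normal and Veh. *Cd68* lies at 1651 CPM per kb or more on average in every group and *Olr1* below 1, while *Marco* and *Colec12* lie lower in the libraries labelled steatotic.

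The receptors did not move as 1 block. At Veh, 6 of the 10 were higher and 3 lower with the label steatotic than with the label normal at an adjusted p-value under 0.05 (edgeR's quasi-likelihood test with Benjamini-Hochberg adjustment over all tested genes), where 30.7% of all tested genes passed, 16.4% higher and 14.3% lower. With CC, 4 were higher and 5 lower with the label steatotic, where 28.8% of all tested genes passed, 15.9% higher and 12.9% lower. The median log2 fold change of the 10 was 0.29 at Veh and −0.14 with CC, against −0.01 and 0.00 over all tested genes. CC changed 3 of the 10 with the label normal, 1 higher and 2 lower, where 11.8% of all tested genes passed, 6.27% higher and 5.54% lower. It changed 7 of the 10 with the label steatotic, 4 higher and 3 lower, where 22.9% passed, 12.0% higher and 10.9% lower. The median log2 fold change of the 10 on CC was 0.04 with the label normal and 0.18 with the label steatotic, against 0.00 over all tested genes in both. The difference between the responses to CC passed for 2 of the 10, both negative, where 3.22% of all tested genes passed, 1.95% positive and 1.27% negative. The 2 comparisons of livers share no library with each other but share all of their libraries with the 2 CC comparisons. These are bulk samples, in which fewer cells of a type and less RNA per cell cannot be told apart.

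**Figure D2:**
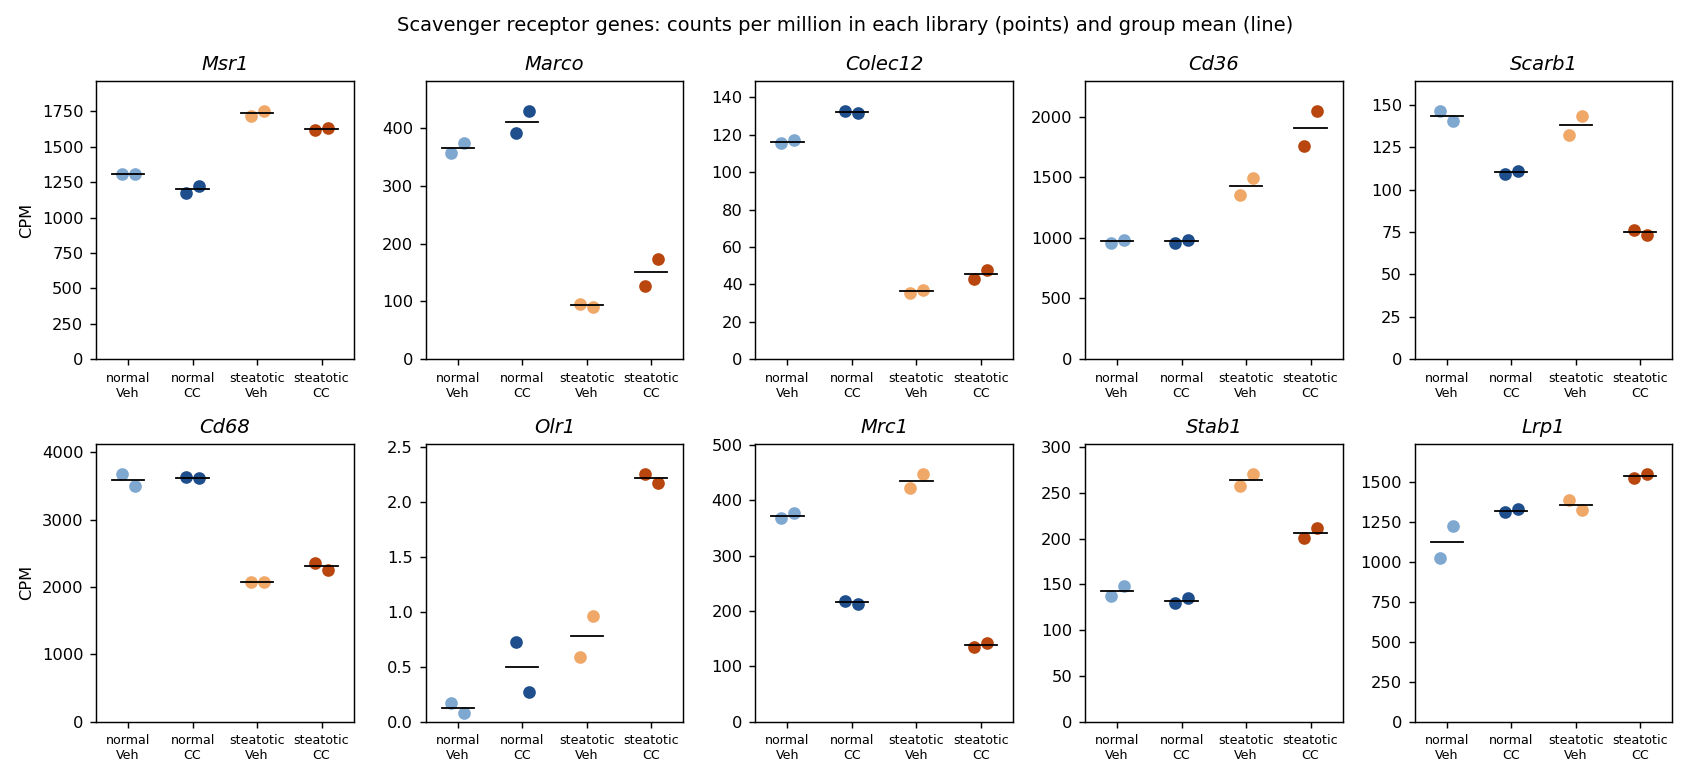
CPM of each scavenger receptor gene in the 8 libraries (points) with the mean of each group of 2 (line), on axes that start at 0 and differ between genes. *Marco*, *Colec12* and *Cd68* are lower in both groups labelled steatotic, *Cd36*, *Msr1* and *Stab1* are higher there, and *Mrc1* and *Scarb1* are lower with CC under both labels.

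Among the class A receptors, *Marco* and *Colec12* were lower and *Msr1* higher with the label steatotic, with and without CC. *Marco*, a receptor of resident macrophages for bacteria and particles (ENSMUSG00000026390.7, GRCm38 chr1:120474538-120505024, minus strand), was at 357 and 375 CPM with the label normal and Veh, 392 and 431 with CC, 95.2 and 90.5 with the label steatotic and Veh, and 127 and 173 with CC. Every library labelled steatotic was below every library labelled normal. Its level at Veh was 3.82-fold lower with the label steatotic, a log2 fold change of −1.93 (SE 0.15, edgeR adjusted p = 0.000313). With CC the gap was 2.69-fold (log2 fold change −1.43, SE 0.14, edgeR adjusted p = 0.00116). CC raised *Marco* with the label steatotic (log2 fold change 0.71, SE 0.14, edgeR adjusted p = 0.0187), but the 2 libraries with CC lay far apart, and the call was lost without either Veh library of that label (edgeR adjusted p = 0.0830 without replicate 1 and 0.109 without replicate 2). With the label normal its log2 fold change on CC was 0.20 (95% confidence interval −0.15 to 0.56).

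*Colec12*, which encodes the collectin placenta 1 scavenger receptor for oxidized LDL and microbial sugars (ENSMUSG00000036103.9, chr18:9707595-9882644, plus strand), was at 116 and 117 CPM with the label normal and Veh, 133 and 132 with CC, 35.6 and 36.8 with the label steatotic and Veh, and 42.9 and 47.8 with CC. The groups did not overlap, and both labels showed higher values with CC. It was 3.11-fold lower with the label steatotic at Veh (log2 fold change −1.64, SE 0.059, edgeR adjusted p = 1.65e-06) and 2.86-fold lower with CC (log2 fold change −1.52, SE 0.059, edgeR adjusted p = 2.36e-06). On CC it rose with the label steatotic (log2 fold change 0.34, SE 0.058, edgeR adjusted p = 0.00441) and with the label normal (log2 fold change 0.22, SE 0.057, edgeR adjusted p = 0.0470). The latter call was at the threshold and was lost under several alternatives, such as library size only (edgeR adjusted p = 0.0842) and without any 1 of the 4 libraries compared (0.125 to 0.173).

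*Msr1*, the macrophage receptor for acetylated and oxidized LDL (ENSMUSG00000025044.16, chr8:39581685-39642673, minus strand), was at 1309.5 and 1309 CPM with the label normal and Veh, 1175 and 1221 with CC, 1719.6 and 1754 with the label steatotic and Veh, and 1616 and 1631 with CC. The libraries labelled steatotic were all above those labelled normal, and within each label the libraries with CC were the lower ones. It was 36.9% higher with the label steatotic at Veh (log2 fold change 0.45, SE 0.031, edgeR adjusted p = 3.41e-05) and 38.0% higher with CC (log2 fold change 0.46, SE 0.031, edgeR adjusted p = 3.42e-05). Its log2 fold change on CC was −0.09 (95% confidence interval −0.16 to −0.02, edgeR adjusted p = 0.110) with the label normal and −0.08 (−0.15 to −0.01, edgeR adjusted p = 0.113) with the label steatotic, neither past the threshold over all genes, although the former passed with library size only (edgeR adjusted p = 0.0363).

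The class B receptors differed from each other. *Cd36*, which takes up oxidized LDL and long-chain fatty acids (ENSMUSG00000002944.15, chr5:17781690-17888801, minus strand), was at 959 and 984 CPM with the label normal and Veh and at 961 and 985 with CC. With the label steatotic it was at 1356 and 1494 CPM with Veh and at 1757 and 2048 with CC. The libraries labelled normal overlapped with and without CC, and those labelled steatotic did not. *Cd36* was 51.4% higher with the label steatotic at Veh (log2 fold change 0.60, SE 0.076, edgeR adjusted p = 0.00126) and 99.1% higher with CC (log2 fold change 0.99, SE 0.077, edgeR adjusted p = 0.000140). CC raised it by 35.1% with the label steatotic (log2 fold change 0.43, SE 0.076, edgeR adjusted p = 0.00699), while the log2 fold change was 0.04 (95% confidence interval −0.14 to 0.22) with the label normal. The difference between these responses, 0.40 on the log2 scale (95% confidence interval 0.14 to 0.65), had an edgeR adjusted p of 0.135 and so did not pass, although it passed without replicate 1 of the group labelled steatotic with CC (0.50, edgeR adjusted p = 0.0270) and with DESeq2 (0.39, adjusted p = 0.0329).

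*Scarb1*, the receptor SR-BI for high-density lipoprotein (ENSMUSG00000037936.15, chr5:125277087-125341094, minus strand), did not separate the labels at Veh, with 147 and 141 CPM with the label normal and 133 and 144 with the label steatotic. With CC it was at 109.6 and 111 CPM with the label normal and at 76.5 and 73.1 with the label steatotic. All libraries with CC were below all libraries with Veh, and those labelled steatotic were the lowest. Its log2 fold change between labels at Veh was −0.01 (95% confidence interval −0.13 to 0.11). On CC it fell by 21.2% with the label normal (log2 fold change −0.34, SE 0.053, edgeR adjusted p = 0.00572) and fell by 45.2% with the label steatotic (log2 fold change −0.87, SE 0.053, edgeR adjusted p = 2.75e-05). The fall was larger with the label steatotic (difference −0.52 on the log2 scale, SE 0.075, 95% confidence interval −0.70 to −0.35, edgeR adjusted p = 0.0117). With CC its level was then 1.45-fold lower with the label steatotic (log2 fold change −0.53, edgeR adjusted p = 0.000263).

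*Cd68*, a lysosomal glycoprotein widely used as a macrophage marker (ENSMUSG00000018774.13, chr11:69664213-69666153, minus strand), was at 3685 and 3494 CPM with the label normal and Veh, 3629 and 3611 with CC, 2075.4 and 2075.5 with the label steatotic and Veh, and 2362 and 2249.9 with CC. Every library labelled steatotic was below every library labelled normal, whose groups overlapped with and without CC. *Cd68* was 1.68-fold lower with the label steatotic at Veh (log2 fold change −0.74, SE 0.037, edgeR adjusted p = 7.19e-06) and 1.54-fold lower with CC (log2 fold change −0.62, SE 0.037, edgeR adjusted p = 1.87e-05). On CC it rose by 12.4% with the label steatotic (log2 fold change 0.17, SE 0.037, edgeR adjusted p = 0.0147), a call that was lost without either Veh library of that label or without replicate 1 with CC (edgeR adjusted p = 0.0647 to 0.0723). With the label normal the log2 fold change was 0.05 (95% confidence interval −0.04 to 0.14).

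Of the lectin-like receptors, *Mrc1* (ENSMUSG00000026712.3, chr2:14229392-14332057, plus strand) fell with CC under both labels and *Olr1* was at very low levels. *Mrc1* was at 369 and 376 CPM with the label normal and Veh, 219 and 213 with CC, 423 and 449 with the label steatotic and Veh, and 135 and 143 with CC. The order of the labels turned over, so that the libraries labelled steatotic were the highest with Veh and the lowest with CC. CC lowered *Mrc1* 1.68-fold with the label normal (log2 fold change −0.75, SE 0.045, edgeR adjusted p = 9.10e-05) and 3.11-fold with the label steatotic (log2 fold change −1.64, SE 0.046, edgeR adjusted p = 1.58e-06). The responses differed by −0.89 (log2, SE 0.064, 95% confidence interval −1.03 to −0.74, edgeR adjusted p = 0.00121). Between the labels *Mrc1* was 20.7% higher with the label steatotic at Veh (log2 fold change 0.27, SE 0.045, edgeR adjusted p = 0.00297) and 1.53-fold lower with CC (log2 fold change −0.61, SE 0.045, edgeR adjusted p = 5.49e-05). The microRNA gene *Mir511* lies in an intron of *Mrc1* and had 3 counts in all 8 libraries together.

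*Olr1* (ENSMUSG00000030162.14, chr6:129485244-129507165, minus strand) had 12 and 5 counts with the label normal and Veh, 45 and 16 with CC, 40 and 71 with the label steatotic and Veh, and 148 and 162 with CC. These correspond to 0.170 and 0.0755, 0.721 and 0.273, 0.585 and 0.965, and 2.26 and 2.17 CPM, against a floor of 0.0403 to 0.0511 CPM for 3 counts. An excess of multiples of 4 among low counts points to about 4 counts for each fragment, in which case the lowest of these values rest on a few fragments. The floor for 3 fragments would then be 0.161 to 0.205 CPM. Both libraries with the label normal and Veh would lie at or below their floors of 0.170 and 0.181 CPM. With the label steatotic it was higher at Veh (log2 fold change 2.68, 95% confidence interval 1.27 to 4.08, edgeR adjusted p = 0.0125) and with CC (2.17, 95% confidence interval 0.93 to 3.41, edgeR adjusted p = 0.0190). The call at Veh was lost without replicate 2 with the label normal and Veh (edgeR adjusted p = 0.0694) or without replicate 2 with the label steatotic and Veh (0.0582), and the call with CC without replicate 2 with the label normal and CC or without either library labelled steatotic with CC (0.0657 to 0.0727). Its log2 fold change on CC was 2.03 with the label normal (edgeR adjusted p = 0.0778) and 1.53 with the label steatotic (edgeR adjusted p = 0.0725), neither past the threshold, whereas both passed with DESeq2 (adjusted p = 0.0290 and 0.0499). The former also passed without replicate 2 with the label normal and CC (edgeR adjusted p = 0.0404), and the latter without either library of that group (0.0389 and 0.0412).

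*Stab1* (ENSMUSG00000042286.13, chr14:31139013-31168641, minus strand) was at 137 and 148 CPM with the label normal and Veh, 129 and 135 with CC, 258 and 271 with the label steatotic and Veh, and 200.1 and 212 with CC. The libraries labelled steatotic were all above those labelled normal. *Stab1* was 1.91-fold higher with the label steatotic at Veh (log2 fold change 0.94, SE 0.056, edgeR adjusted p = 1.77e-05) and 1.59-fold higher with CC (log2 fold change 0.67, SE 0.056, edgeR adjusted p = 0.000113). On CC it fell with the label steatotic (log2 fold change −0.34, SE 0.056, edgeR adjusted p = 0.00360), while with the label normal the log2 fold change was −0.07 (95% confidence interval −0.20 to 0.06). The difference between the responses, −0.27 (95% confidence interval −0.45 to −0.09), did not pass (edgeR adjusted p = 0.145). Its exons overlap those of *Nt5dc2* on the opposite strand, which had 4387 counts in all 8 libraries together. The library kit keeps the strand, but the sources used here do not say whether counting used it, so that reads of the shared stretch cannot be assigned with certainty.

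*Lrp1* (ENSMUSG00000040249.15, chr10:127538161-127621148, minus strand), which spans 88 exon blocks in the annotation, was at 1020.2 and 1225 CPM with the label normal and Veh, 1309.6 and 1328 with CC, 1383 and 1323 with the label steatotic and Veh, and 1522 and 1551 with CC. The 2 libraries with the label normal and Veh were the lowest and lay farthest apart. *Lrp1* was 24.4% higher with the label steatotic at Veh (log2 fold change 0.31, SE 0.080, edgeR adjusted p = 0.0255), a call that was lost with no filter on low counts (edgeR adjusted p = 0.0713), with only the 4 libraries compared (0.108) and without any 1 library labelled steatotic (0.0556 to 0.122). With CC the log2 fold change between labels was 0.25 (95% confidence interval 0.06 to 0.44, edgeR adjusted p = 0.0620). On CC it was 0.27 with the label normal (95% confidence interval 0.08 to 0.46, edgeR adjusted p = 0.0851) and 0.20 with the label steatotic (0.01 to 0.39, edgeR adjusted p = 0.133), neither past the threshold. With DESeq2 and all libraries, *Lrp1* passed between labels with CC (adjusted p = 0.0235) and on CC with the label normal (0.0178). In edgeR without either library labelled normal with Veh, *Lrp1* passed between labels with CC (edgeR adjusted p = 0.00357 and 0.00366) and on CC with the label steatotic (0.00809 and 0.00836), and without replicate 2 of that group it passed on CC with the label normal (log2 fold change 0.41, edgeR adjusted p = 0.00319).

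**Figure D3:**
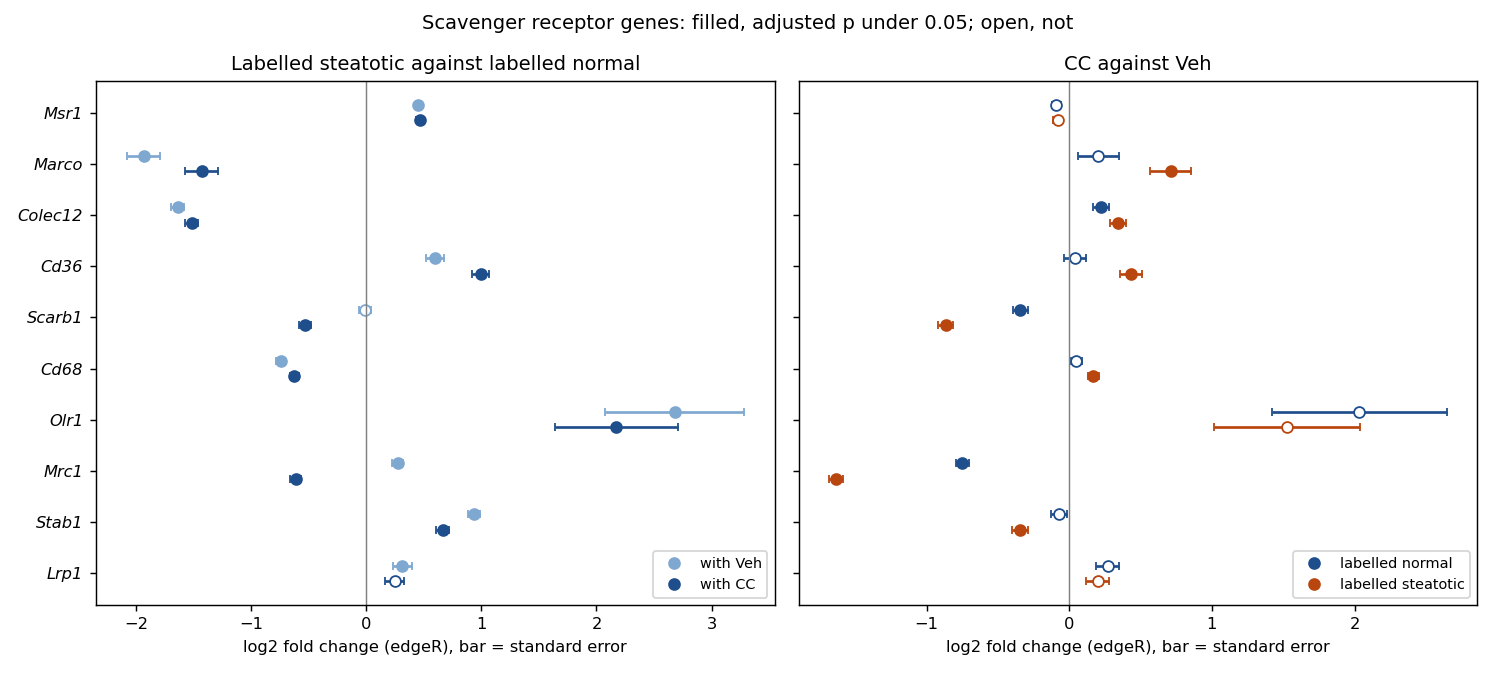
Fitted log2 fold changes with their standard errors for the 10 genes, between the labels on the left (with Veh and with CC) and between CC and Veh on the right (for each label). Filled points passed an adjusted p-value of 0.05. *Mrc1* and *Scarb1* lie to the left of 0 on CC under both labels, at −1.64 and −0.87 with the label steatotic, and the wide bars belong to *Olr1*.

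The responses to CC could thus be set apart by a test for only 2 of the 10 genes, *Mrc1* and *Scarb1*, whose difference was negative for both. For the other 8 the interval of the difference is the useful value. It ran from 0.01 to 1.01 on the log2 scale for *Marco* (edgeR adjusted p = 0.345), from −0.07 to 0.31 for *Colec12*, from −0.09 to 0.11 for *Msr1*, from −0.003 to 0.24 for *Cd68*, from −0.34 to 0.20 for *Lrp1* and from −2.32 to 1.31 for *Olr1*. The narrow interval of *Msr1* leaves little room for unlike responses, and that of *Olr1* leaves much. *Marco* also passed without replicate 1 of the group labelled steatotic with CC (0.71, edgeR adjusted p = 0.0147).

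Other scavenger receptors were mostly lower with CC. The list held 11 genes, of which 7 were tested. With CC, 4 of the 7 fell with the label normal, where 5.54% of all tested genes fell, and 4 fell and 1 rose with the label steatotic, where 10.9% fell and 12.0% rose. *Cd163*, the macrophage receptor for haptoglobin-bound hemoglobin, fell by 1.54 on the log2 scale (SE 0.23) with the label normal and by 2.30 (SE 0.25) with the label steatotic, from means of 5.18 and 3.08 CPM with Veh. *Cxcl16*, which encodes a membrane-bound chemokine that also binds oxidized LDL, fell by 0.43 and 0.46, *Scarf1*, a receptor for modified LDL and apoptotic cells, by 0.26 and 0.53, and *Scarb2*, a lysosomal membrane protein of class B, by 0.28 and 0.43. *Stab2*, the sister gene of *Stab1*, rose by 0.35 with the label steatotic. Between the labels at Veh, 2 of the 7 were higher (*Scarf1* at 0.71 and *Cxcl16* at 0.33) and 2 lower (*Stab2* at −0.33 and *Cd163* at −0.70), against 16.4% and 14.3% of all tested genes, and with CC 2 were higher and 1, *Cd163* at −1.46, was lower, against 15.9% and 12.9%. For the difference between the responses, 0 of the 7 passed in edgeR, 1 at an unadjusted p under 0.05 and 0 in DESeq2.

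**Figure D4:**
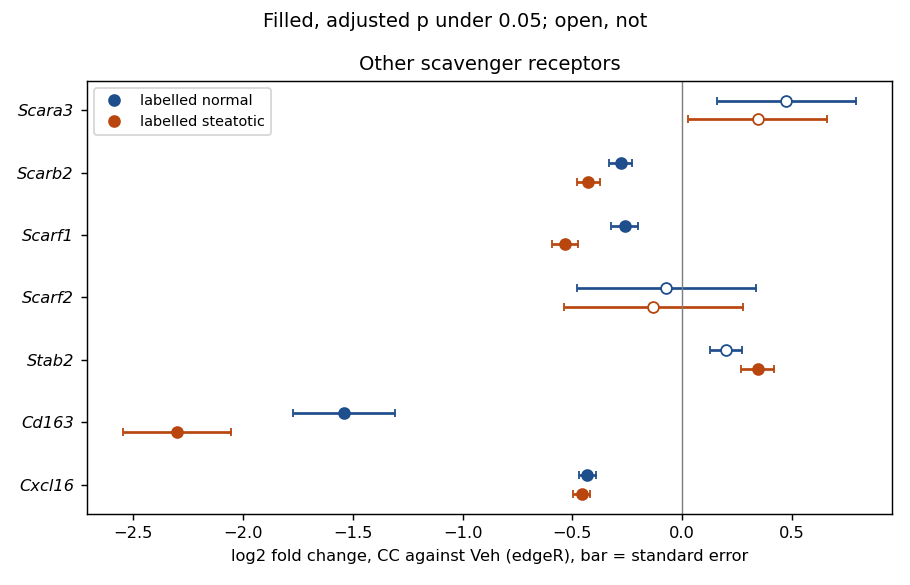
Fitted log2 fold changes on CC with their standard errors for the 7 tested genes of the other scavenger receptors, for each label, with filled points where the adjusted p was under 0.05. *Cd163* lies farthest to the left under both labels, and *Stab2* has a filled point to the right of 0 with the label steatotic.

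The lipoprotein receptor family, whose members take up lipoproteins or serve in signaling, was measured by 15 genes with their adaptors, of which 13 were tested. On CC 2 rose and 2 fell with the label normal, where 6.27% of all tested genes rose and 5.54% fell, and 2 rose and 4 fell with the label steatotic, where 12.0% rose and 10.9% fell. The difference between the responses passed for 1 upward and 2 downward, where 3.22% of all tested genes passed. *Lrp5* and *Lrp6*, the Wnt co-receptors, fell by 1.14 and 0.72 with the label steatotic, more than with the label normal (differences −0.82 and −0.48, edgeR adjusted p = 0.00185 and 0.0316), and *Lrp12* rose by 0.46 and 0.43. At Veh, 5 of the 13 were higher with the label steatotic, among them the sorting receptors *Sorl1* (log2 fold change 2.62) and *Sort1* (1.86) and the lipolysis-stimulated receptor *Lsr* (1.31), and 2 were lower, against 16.4% and 14.3% of all tested genes. With CC 5 were higher and 3 lower, against 15.9% and 12.9%.

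Ligands, partners and sheddases of the receptors were followed with 20 genes, of which 18 were tested. At Veh, 8 were higher and 5 lower with the label steatotic (16.4% and 14.3% of all tested genes), and with CC 9 were higher and 5 lower (15.9% and 12.9%). *Thbs1*, which encodes thrombospondin-1, a ligand of CD36 and LRP1, was at 24.4 ± 2.29 CPM with the label normal and at 209 ± 8.84 with the label steatotic (log2 fold change 3.14, edgeR adjusted p = 3.96e-07). The kinases that act downstream of CD36 were higher too, *Fyn* at 1.09 and *Lyn* at 0.54 on the log2 scale. Lower at Veh were *Lpl* (−0.74), *Tlr2* (−0.72), *Hsp90b1* (−0.49), *Calr* (−0.44) and *Snx17* (−0.20). CC raised 3 and lowered 2 with the label normal (6.27% and 5.54% of all tested genes), and raised 5 and lowered 5 with the label steatotic (12.0% and 10.9%). *Cd9*, a tetraspanin partner of CD36, rose by 1.08 and 1.88 on the log2 scale, *Lpl*, the lipoprotein lipase that bridges lipoproteins to the cell surface, by 0.45 and 0.57, and *Dab2*, an adaptor that binds the tail of LRP1 and other receptors, fell by 0.36 and 0.86. The difference between the responses passed for 5 of the 18 (3.22% of all tested genes), among them *Thbs1* (0.89), *Cd9* (0.80), *Tlr2* (0.61), a partner of CD36 in pattern recognition, and *Dab2* (−0.50).

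Regulators of these genes were followed with 11 transcription factors, all tested. *Maf*, a factor of resident macrophages, was higher with the label steatotic at Veh (log2 fold change 1.13, edgeR adjusted p = 8.77e-07) and fell on CC by 0.49 and 0.74 with the labels normal and steatotic. *Nr1h3*, which encodes the oxysterol receptor LXRα, fell by 0.48 and 0.36, and *Egr1*, an immediate early factor, rose by 1.59 and 2.36, with a difference of 0.76 (edgeR adjusted p = 0.00659). At Veh its mean was 11.54 CPM with the label steatotic and 21.1 with the label normal (log2 fold change −0.83, edgeR adjusted p = 8.15e-05), and with CC the means were 58.4 and 62.2 CPM (edgeR adjusted p = 0.516). *Spi1*, which encodes PU.1, was 0.37 higher with the label steatotic at Veh. In all, CC raised 1 and lowered 3 of the 11 with the label normal (6.27% and 5.54% of all tested genes) and raised 2 and lowered 6 with the label steatotic (12.0% and 10.9%), the difference passing for 1 in each direction (1.95% and 1.27%). Between the labels 4 were higher and 4 lower at Veh (16.4% and 14.3%), and 4 higher and 2 lower with CC (15.9% and 12.9%).

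The handling of sterol after uptake was followed with 10 genes, all tested. On CC 4 rose and 1 fell with the label normal (6.27% and 5.54% of all tested genes), and 6 rose and 2 fell with the label steatotic (12.0% and 10.9%). The cholesterol exporters rose under both labels, *Abca1* by 1.22 and 1.16 and *Abcg1* by 0.96 and 0.83 on the log2 scale, as did *Plin2*, a coat protein of lipid droplets, by 0.23 and 0.29. *Fabp5*, a fatty acid carrier, rose by 0.39 with the label steatotic, with a log2 fold change of −0.01 with the label normal and a difference of 0.40 (edgeR adjusted p = 0.0113). The difference passed for 2 genes upward and 1 downward (1.95% and 1.27% of all tested genes), the latter *Lipa*, the lysosomal acid lipase (−0.28, edgeR adjusted p = 0.0122). Between the labels 4 were higher and 4 lower at Veh, with *Fabp5* at 0.87 and *Lipa* at −0.54, against 16.4% and 14.3% of all tested genes, and 5 were higher and 4 lower with CC, against 15.9% and 12.9%.

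Markers of cell types moved with the labels and with CC. Of all tested genes, 16.4% were higher and 14.3% lower with the label steatotic at Veh, and on CC 6.27% rose and 5.54% fell with the label normal and 12.0% rose and 10.9% fell with the label steatotic. Of 8 Kupffer cell markers, 4 were higher and 1 lower with the label steatotic at Veh, and with CC 4 fell with the label normal and 6 with the label steatotic. Their summed level was 3125 to 3256 CPM with the label normal and Veh, 2373 to 2550.0 with CC, 4699.7 to 4951 with the label steatotic and Veh, and 3198 to 4004 with CC. *Cd5l* made up most of that sum at Veh, at means of 1933 and 3142 CPM with the labels normal and steatotic. *Clec4f* went the other way at Veh, at means of 135 and 92.2 CPM. *Vsig4*, a complement receptor of Kupffer cells, fell by 2.26 and 2.76 and *Clec4f* by 0.78 and 0.98 on the log2 scale with CC, the same direction as *Mrc1* and *Scarb1*. Of 9 general macrophage markers, 6 were higher and 2 lower with the label steatotic at Veh, and on CC 1 rose and 6 fell with the label normal and 1 rose and 5 fell with the label steatotic, while their sum was 12892 to 13162 CPM with the label normal and Veh, 9855 to 10126 with CC, 10411 to 10854 with the label steatotic and Veh, and 8504 to 9647 with CC. At Veh the sum was thus lower with the label steatotic although more of the 9 were higher. The 8 markers of recruited monocytes summed to 21.2 to 21.8 CPM with the label normal and Veh and 172 to 173 with the label steatotic and Veh, and since 1 of them, *Chil3*, passed the filter on low counts only through the libraries labelled steatotic, no count of calls between labels is given. With CC the sum was 14.5 to 16.0 and 125 to 139 CPM, with 1 of the 8 lower with the label normal and 2 with the label steatotic. The part of these shifts in the receptor values was not tested.

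Sinusoidal endothelial cells express *Stab1*, *Mrc1*, *Cd36* and *Scarb1* as well, and 13 of their 14 markers were matched in the table, 12 of which were tested. The 13 summed to 109 to 118 CPM with the label normal and Veh, 116 to 118 with CC, 279.6 to 288 with the label steatotic and Veh, and 199 to 201 with CC. The sum was thus higher with the label steatotic and, under that label, lower with CC, as *Stab1* was. The higher sum at Veh lay largely in *Dnase1l3*, *Pecam1* and *Kdr*. Their means were 5.63, 26.1 and 11.7 CPM with the label normal and Veh and 90.1, 95.2 and 33.9 with the label steatotic and Veh. At Veh 4 of the 12 were higher and 2 lower with the label steatotic (16.4% and 14.3% of all tested genes), the higher ones led by *Dnase1l3* (log2 fold change 4.05), *Pecam1* (1.91) and *Kdr* (1.58). The defining marker *Clec4g* was at 0 to 0.304 CPM in the 8 libraries. *Stab2*, which is on this list and on that of the scavenger receptors, was lower with the label steatotic at Veh (log2 fold change −0.33). On CC, 1 rose and 1 fell with the label normal (6.27% and 5.54% of all tested genes) and 3 rose and 2 fell with the label steatotic (12.0% and 10.9%), among them *Pecam1* at −1.30 and *Kdr* at 0.57. The part of endothelial RNA in the values of *Stab1*, *Mrc1*, *Cd36* and *Scarb1* was not tested.

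Markers of other cell types were present at lower levels than those of macrophages. Of all tested genes, 16.4% were higher with the label steatotic at Veh, and on CC 5.54% fell with the label normal and 10.9% with the label steatotic. The 10 hepatocyte markers, of which 9 were tested, had summed levels of 157 to 163 CPM with the label normal and Veh, 123 to 136 with CC, 106 to 120.2 with the label steatotic and Veh, and 48.5 to 55.4 with CC. *Trf*, which encodes transferrin, made up most of the sum, at means of 97.9 and 71.5 CPM with Veh and CC under the label normal and 110 and 49.3 under the label steatotic, and was the 1 marker of the 9 that CC lowered under each label. *Alb*, which encodes albumin, was at 48.8 and 44.4 CPM with the label normal and 1.58 and 2.08 with the label steatotic, 30.0-fold lower at Veh (edgeR adjusted p = 1.19e-05), and did not pass the test on CC (edgeR adjusted p = 0.798 and 0.226). Of the 9, 6 passed the filter on low counts only through the libraries labelled normal, so that no count of calls between labels is given. *Scarb1* is a hepatocyte gene too, and the part of hepatocyte RNA in its values was not tested. Of 10 stellate cell and fibroblast markers only *Dcn* and *Hgf* were tested, both higher with the label steatotic, with *Dcn* rising by 1.63 and 2.69 on the log2 scale with CC and *Hgf* falling by 0.61 and 1.10. The 10 summed to 14.2 to 16.7 CPM with the label normal, 46.7 to 48.2 with the label steatotic and Veh, and 122 to 148 with CC, while the defining marker *Lrat* was at 0 to 0.128 CPM. T and NK cell markers summed to 3.35 to 4.07 CPM with the label normal and Veh, 2.02 to 2.34 with CC, 8.67 to 9.54 with the label steatotic and Veh, and 6.94 to 7.12 with CC. Of these 6 genes all but *Cd4* passed the filter on low counts only through the libraries labelled steatotic, so that no count of calls between labels is given. Dendritic cell markers summed to 5.21 to 5.44 CPM with the label normal and Veh, 9.72 to 10.4 with CC, 9.49 to 9.67 with the label steatotic and Veh, and 8.28 to 8.99 with CC. Of the 5 tested, 1, *Flt3*, passed the filter only through the libraries labelled normal. B cell markers summed to 0.854 to 2.88 CPM (1 of 3 tested, *Ms4a1*, lower with CC under the label steatotic). Of 5 neutrophil markers 2 were tested, *Csf3r*, which macrophages express as well, at 0.96 and *S100a8* at −0.92 with the label steatotic at Veh, and *Ly6g* was at 0 in all libraries, the 5 summing to 74.3 to 91.2 CPM with the label normal and 144 to 161 with the label steatotic. On CC *S100a8* went from means of 9.51 to 14.6 CPM with the label normal and from 4.87 to 18.8 with the label steatotic. *Csf3r* went from 81.2 to 60.4 and from 153 to 126 CPM. The part of these cells in the receptor values was not tested.

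The genes with the pattern most like each receptor over the 8 libraries were found by the root mean square difference of log2 CPM centred on the mean of each gene, among 9100 genes with a mean of at least 8 CPM. The closest matches were *Stat2* to *Msr1* (0.0250), *H1f0* to *Cd68* (0.0291), *Birc6* to *Lrp1* (0.0387), *Mefv* to *Cd36* (0.0543) and *Dok3* to *Stab1* (0.0558). For the receptors with the larger changes the nearest genes were *Myo6* for *Colec12* (0.0737), *Adcy4* for *Mrc1* (0.103) and *Hgsnat* for *Marco* (0.136). *Olr1* had no close match, its nearest gene being *Vegfa* at 0.503. The second nearest genes were, in the same order, *Sp100*, *Ctsa*, *Rnf213*, *Jak2*, *Snhg8*, *Creg1*, *Zdhhc14*, *Epn2* and *AI427809*, at 0.0294 to 0.570. For *Scarb1* the second nearest was *Nab2* (0.0709). These likenesses describe 8 libraries in 4 groups and carry no test.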

How the data were processed

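Poly(A) RNA was measured in 8 libraries of cultured hepatic macrophages with 150 bp paired-end reads. Reads had been trimmed (fastp), mapped to mm10 (HISAT2) and quantified (StringTie) by the authors, with versions not given in the sources used here. For 55401 genes the authors deposited estimated counts (unit: expected counts) without normalization, as whole numbers, so that no rounding was needed. Multiples of 4 made up 35.0% to 36.5% of low counts and 23.9% to 27.0% of higher counts, as if each fragment gave about 4 counts, and counts divided by 4 were an alternative. Total counts were 58668655 to 74529462, and 3 counts correspond to 0.0403 to 0.0511 CPM, for counting error only.

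Of 28711 genes with any count, the 15202 with 0.5 CPM or more in 1 or more libraries were tested with edgeR 4.0.16 in R 4.3.3 (TMM factors 0.981 to 1.03, glmQLFit with robust estimation, glmQLFTest) in 1 model of 4 group means with all 8 libraries. The common biological coefficient of variation was 0.171. Benjamini-Hochberg adjustment ran over all tested genes of each contrast, and the threshold was 0.05. Fold changes come from this fit, and CPM from counts over the library total. The paper names iDEP but no test for these libraries. Levels per kb use the union of exons of GENCODE M21 on GRCm38, which holds 15181 of the tested genes. RefSeq promoter windows (GRCm38.p6) were searched for fixed motifs.

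The 10 genes, the gene lists and the tests were chosen with earlier results of these data known. Named genes were the 10, up to 4 of each list with the lowest adjusted p-value in the contrast described, *Mc4r* and the 2 nearest genes by pattern. *Csf1r*, *Stab2* on CC, *Fabp5* with the label normal, *Clec4g*, *Lrat*, *Ly6g*, *Hsp90b1*, *Calr*, *Snx17*, *Cd4*, *Chil3*, *Flt3*, *Nt5dc2* and *Mir511* lie outside this rule and were chosen after their values were seen. Some genes that the rule names are not reported here. Alternatives were 2 other filters, library size only, DESeq2 1.42.0, edgeR with DESeq2 size factors, counts divided by 4, an adjusted p-value under 0.1, glmTreat against a 2-fold change, no robust estimation, a replicate block, only the 4 libraries compared, and each library left out in turn. A library left alone in its group is assumed to vary like the other groups. The main edgeR fit was tested on simulated counts for CC against Veh with the label steatotic only. Figures were drawn with matplotlib 3.10.9.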

Additional observations from a re-analysis of the deposited data

Results flagged for a closer look

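*Mrc1* and *Scarb1* were singled out because their responses to CC differed between the labels by the interaction test of edgeR. The difference, steatotic minus normal, was −0.89 on the log2 scale for *Mrc1* (edgeR adjusted p = 0.00121) and −0.52 for *Scarb1* (edgeR adjusted p = 0.0117). Both genes were lower with CC in 2 of 2 libraries of each label, and both calls were made again in each fit without 1 library.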

How the results depend on the processing

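Among the values of the 10 genes, 443 kept their direction and side of the threshold of 0.05 under the settings other than leaving out a library or an adjusted p-value under 0.1, 13 gained a call and 34 lost one. Without 1 library, 364 kept both, 10 gained and 20 lost a call, and 6 changed sign, none of them called. In these fits *Scarb1* between labels at Veh ranged from −0.069 to 0.043 (0.017 and 0.043 without replicate 1 labelled normal or steatotic), and the differences between the CC responses from −0.017 to 0.038 for *Msr1* (−0.017 and −0.0077 without replicate 1 labelled normal with CC or steatotic with Veh), −1.21 to 0.36 for *Olr1* and −0.21 to 0.051 for *Lrp1*. Against a 2-fold change (glmTreat), 2 genes passed between labels at Veh (*Marco* and *Colec12*), 1 with CC (*Colec12*), 0 on CC with the label normal (1 at an unadjusted p under 0.05), 1 with the label steatotic (*Mrc1*) and 0 for the difference (0 unadjusted), where edgeR's test against no change gave 9, 9, 3, 7 and 2. On CC with the label normal, DESeq2 gave 5 and an adjusted p-value under 0.1 gave 5 in place of 3. Without 1 library the counts ranged from 7 to 9 between labels at Veh, 8 to 10 with CC, 2 to 3 on CC with the label normal, 5 to 8 with the label steatotic and 2 to 4 for the difference. The cause was not tested.

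Over all genes, the difference between the responses had 490 calls and 737 with DESeq2, and 307, 314 and 298 without replicate 1 or 2 labelled normal with CC or replicate 2 labelled steatotic with Veh. CC with the label normal had 1795 calls, and 1020, 1095 and 1083 without replicate 1 or 2 labelled normal with CC or replicate 1 labelled normal with Veh, so that the shares of all tested genes given beside the lists would be lower too. On CC with the label normal, 953 genes were higher and 842 lower, but 808 higher and 1110 lower with library size only, which also turned 2489 higher and 2176 lower between labels at Veh into 2210 and 2683, and 1821 and 1653 on CC with the label steatotic into 1723 and 1792. The test against a 2-fold change left 561, 510, 38, 261 and 6 calls. The replicate block gave 4371, 4067, 1545, 3237 and 400 calls in place of 4665, 4384, 1795, 3474 and 490. Deviations of libraries with the same number correlated at −0.00486 to 0.0630 across genes, so that the numbers were not taken to pair the samples. With the block, *Colec12* on CC with the label normal was lost (adjusted p = 0.0540) and the difference of *Cd36* passed (0.0474). Depth limits only *Olr1*, whose lowest libraries had 12 and 5 counts.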
